A study of Mus musculus with 16 samples.

Results

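The genes described here carry, store, sense and export iron in the liver, together with genes of the hormone hepcidin and of its regulation. They are the 10 genes Hamp, Hamp2, Bmp6, Hfe2, Hfe, Tfr2, Tfrc, Trf, Fth1 and Slc40a1, of 19363 genes tested. Each was found on the arrays by its name or an older one (Hamp as Hamp1, Tfr2 as Trfr2), and the probe with the highest mean red signal stood for the gene. All 10 met the condition for testing, a red signal well above background on 3 or more arrays. Hfe and Bmp6 had a second probe each, and the others had 1. The probes lie on chromosomes 7 (Hamp, Hamp2), 13 (Bmp6, Hfe), 3 (Hfe2), 5 (Tfr2), 16 (Tfrc), 9 (Trf), 19 (Fth1) and 1 (Slc40a1).

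The livers came from offspring of time-mated C57BL/6BomTac mice. The tested mothers breathed air with about 42 mg/m3 of UV-Titan, a nano-sized titanium dioxide with a coated surface, for 1 hour a day from gestation day 8 to day 18. The control mothers breathed filtered air. The groups were 5 female UV-Titan, 3 female control, 4 male UV-Titan and 4 male control livers, each on its own array, 16 in all. Offspring were taken on postnatal day 2, or at weaning on days 23 to 24 as a male and a female of each litter, and the labels used here give neither the age of each liver nor which animals were littermates. Every array was hybridised with liver RNA in the red channel (Cy5) and the same commercial universal mouse reference RNA in the green channel (Cy3), with no swap of dyes. The labelling protocol assigns the dyes this way, while the dye fields of the labels say the opposite. The median of 9 hepatocyte markers was 4.50 to 5.75 log2 units higher in red than in green on each array, and on that basis red was read as liver.

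Hepcidin, the peptide made from Hamp, is secreted by hepatocytes and binds ferroportin (Slc40a1), the only known cellular iron exporter, which is then degraded, so that less iron enters the blood. Hepatocytes raise Hamp when Bmp6, a ligand made largely by liver sinusoidal endothelial cells, acts with the coreceptor hemojuvelin (Hfe2, now named Hjv), and when holotransferrin is sensed through Hfe and Tfr2. Inflammation raises it through interleukin 6 and STAT3. Transferrin (Trf) carries iron in plasma, transferrin receptor 1 (Tfrc) takes it up, most of all in red cell precursors, and ferritin heavy chain (Fth1) is part of the shell that stores it.

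Mice have a pair of hepcidin genes, and their probes and promoters are printed because the array carries a separate probe for each. Whether Hamp RNA adds to the signal of the Hamp2 probe was not tested. Both probes lie on chromosome 7, minus strand, at positions of the mouse build mm7 that the array files give. Over the 59 bases in which the 60-base probes align, 42 were identical, and the capitals mark the 17 bases at which they differ.
Hamp probe, chr7:27882251-27882310: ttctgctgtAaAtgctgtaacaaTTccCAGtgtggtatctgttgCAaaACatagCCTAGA
Hamp2 probe, chr7:27862281-27862340: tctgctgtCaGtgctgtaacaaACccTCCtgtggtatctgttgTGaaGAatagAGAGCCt

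The 250 bases before the annotated start of each gene come from RefSeq on GRCm38.p6, minus strand, 5′ to 3′. The first block of capitals marks the BMP-responsive element GGCGCC in Hamp and the aligned bases in Hamp2, and the second marks the STAT element TTCNNNGAA.
Hamp promoter, chr7:30944030-30944279: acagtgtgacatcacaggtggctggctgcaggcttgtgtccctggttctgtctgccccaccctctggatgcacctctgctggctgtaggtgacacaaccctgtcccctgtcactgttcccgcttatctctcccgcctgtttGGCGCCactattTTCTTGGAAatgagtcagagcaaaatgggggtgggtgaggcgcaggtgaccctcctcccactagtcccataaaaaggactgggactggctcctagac
Hamp2 promoter, chr7:30924182-30924431: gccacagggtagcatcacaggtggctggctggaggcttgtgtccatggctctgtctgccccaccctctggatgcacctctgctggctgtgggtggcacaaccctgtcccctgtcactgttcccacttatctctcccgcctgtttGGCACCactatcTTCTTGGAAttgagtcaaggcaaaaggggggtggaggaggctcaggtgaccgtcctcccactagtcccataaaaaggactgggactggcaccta

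The promoters were identical at 227 of 247 aligned bases. Hamp held GGCGCC, which begins 109 bases before the start, whereas Hamp2 differed by the substitution G145A, counted from 1 at the 5′ end of the printed Hamp sequence. Both held TTCTTGGAA. On either strand, GGCGCC was present in 9.59% and TTCNNNGAA in 7.02% of the 32851 promoter windows of the same length. Of the 7 members with a promoter in the table, GGCGCC was found in Hamp and in 1 of the Tfrc windows, and TTCNNNGAA in Hamp and Hamp2. The antioxidant element core TGACNNNGC, present in 10.16% of windows, was found in Bmp6 and Hfe. A match is a description of the letters, not a binding site.

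None of the 10 genes differed between UV-Titan and control livers after adjustment over all 19363 genes (limma, Benjamini-Hochberg, threshold 0.05). That held in females, in males and in both sexes averaged, for the log2 ratio of liver over reference and for the liver channel alone. The background was the same: 0% of all genes passed in any of these comparisons. At an unadjusted p below 0.05, Tfr2 and Trf passed by ratio in females, where 6.69% of all genes did, and no member passed in males, where 4.94% did. In the liver channel no member passed in either sex, against 3.11% of all genes in females and 3.21% in males. With both sexes averaged no member passed an unadjusted 0.05 by ratio or by red, against 7.04% and 2.97% of all genes. The UV-Titan and control arrays of every member overlapped in both sexes on both scales, whereas they were apart for 4.22% of genes by ratio in females, 3% by ratio in males, 2.38% by red in females and 1.73% by red in males. The members' median difference by ratio was 0.17 log2 units in females, against 0.02 over all genes, and -0.02 in males. By red it was 0.05 in females and 0.02 in males. The p-values measure the spread between animals that may share litters, and in whole liver fewer cells of a type and less RNA per cell cannot be told apart.

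**Figure D1:**
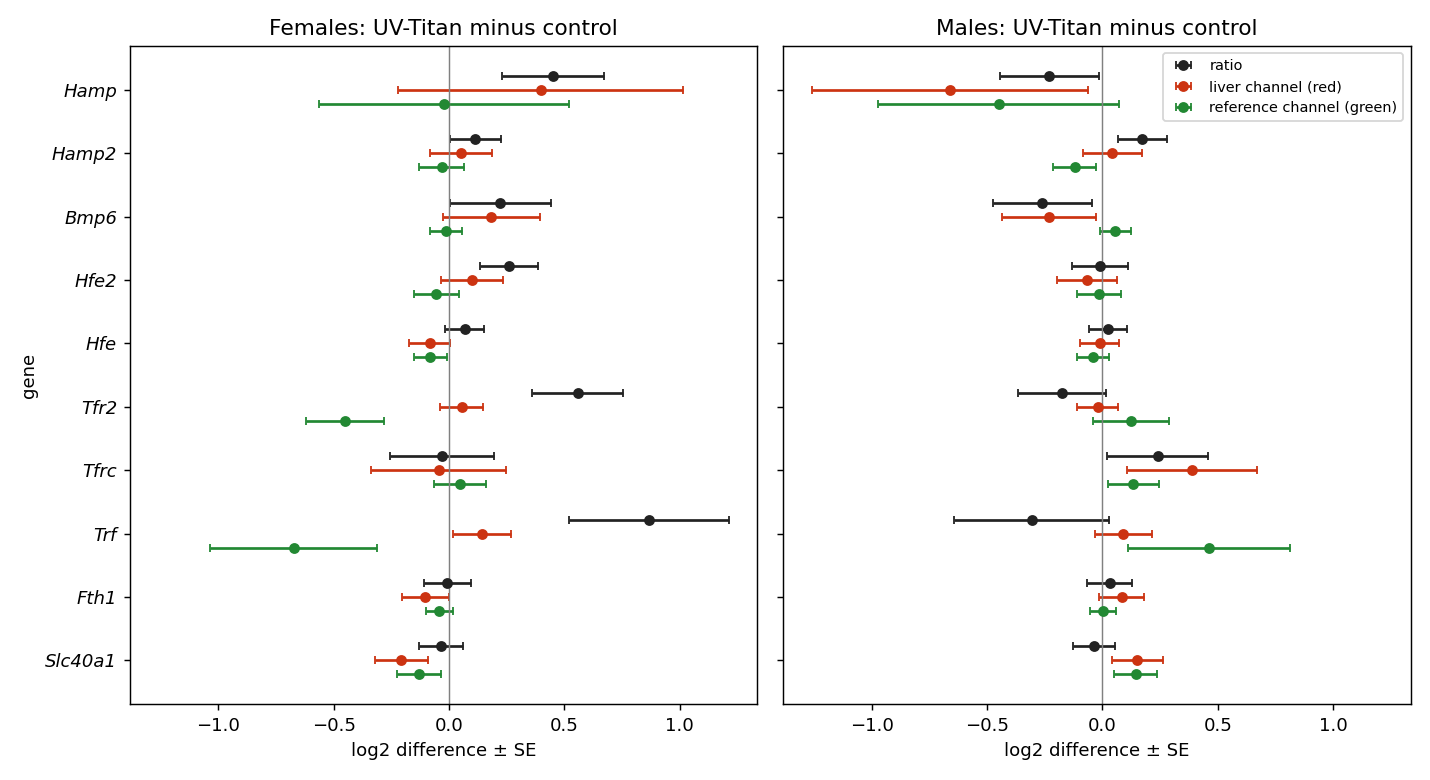
UV-Titan minus control difference of each gene (log2, horizontal axis) in females and males, as points with standard errors from limma, for the ratio, the liver channel and the reference channel. The ratio differences of Trf and Tfr2 in females, 0.87 and 0.56, stand beside liver channel differences of 0.14 and 0.05 and reference channel differences of -0.67 and -0.45.

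Hamp, the hormone gene, had a wider spread over the arrays in the liver channel than almost any other gene, and its exposed and control arrays overlapped in both sexes. In the liver channel it read 13.41, 13.41, 14.93, 14.23 and 13.63 log2 units on female UV-Titan arrays 2, 8, 21, 10 and 16, against 13.07, 13.90 and 13.61 on female control arrays 35, 40 and 25. In males it read 13.01, 13.21, 14.46 and 10.89 on UV-Titan arrays 4, 5, 3 and 17, against 12.36, 13.77, 14.78 and 13.31 on control arrays 41, 31, 43 and 33. The lowest array, male UV-Titan 17, and the highest, female UV-Titan 21, were both exposed and differed 16.5-fold. After removing group means its SD was 0.99 log2 units, rank 20 of 19363 genes, against a median of 0.17 over all genes. The UV-Titan difference was 0.40 ± 0.62 (SE) in females and -0.66 ± 0.60 in males (limma adjusted p = 1.00 and 0.999). The male value rests on array 17: without it the difference was 0.01. The female value turned to -0.07 with slide as a block.

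The reference channel did not hold still for Hamp. The green signal of the same probe, from the same reference RNA on every array, spanned 7.81 to 10.87 log2 units, an 8.32-fold range and rank 9 of 19363 genes by SD. It followed red across the 16 arrays (Pearson r = 0.94, permutation p = 1e-05, the smallest these permutations can give; Spearman rho = 0.91, p = 1e-05; both 1e-04 after adjustment over the 10 members). Without the 2 arrays farthest from the median, r was 0.91. Over all genes the median r of red and green was 0.61, and 97.6% of genes had a lower r than Hamp. The part of the reference channel in the spread of Hamp was not tested.

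By ratio Hamp spanned 2.57 to 3.88 log2 units, a 2.48-fold range and rank 479 of 19363 genes by SD. It read 3.63, 3.88, 3.51, 3.51 and 3.03 on female UV-Titan arrays 2, 8, 21, 10 and 16, against 3.17, 3.18 and 2.83 on female control arrays 35, 40 and 25. All but 1 of the exposed females were above all 3 controls, and array 16 lay among them. In males the ratio was 3.40, 3.74, 3.53 and 2.57 on UV-Titan arrays 4, 5, 3 and 17, against 3.33, 3.87, 3.38 and 3.59 on control arrays 41, 31, 43 and 33. The difference was 0.45 ± 0.22 in females (limma adjusted p = 0.764) and -0.23 ± 0.21 in males (limma adjusted p = 0.961), which turned to 0.02 without male UV-Titan 17. The female minus male effect was 0.68 ± 0.31, with an unadjusted p of 0.0423 and an adjusted p of 0.98 (limma), and 3 members (Hamp, Tfr2 and Trf) passed an unadjusted 0.05 there, against 4.26% of all genes. Within the 3 slides that held both groups of females, the ratio was higher in the exposed liver by 0.46, 0.32 and 0.20. Within slides 1, 2 and 3 the exposed males differed by 0.07, -0.12 and 0.14. With slide as a block the female minus male effect was 0.37 (limma adjusted p = 1.00), and without male UV-Titan 17 it was 0.43 (adjusted p = 1.00).

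**Figure D2:**
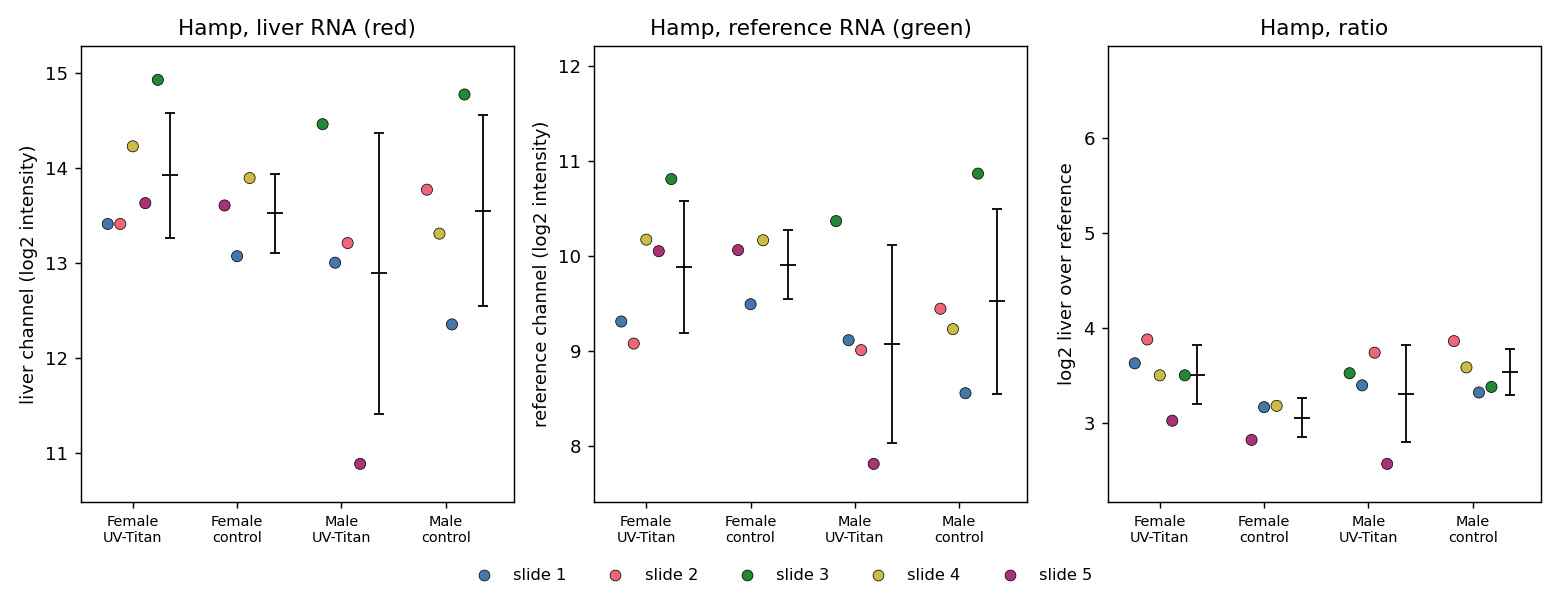
Hamp on each of the 16 arrays as log2 intensity of the liver channel, of the reference channel and as log2 ratio, with points coloured by slide and bars for the group mean and SD; the vertical axes have the same length in log2 units. Liver and reference signals rise and fall together over 10.89 to 14.93 and 7.81 to 10.87, while the ratio stays within 2.57 to 3.88.

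Hamp also differed between the 5 slides. The 3 arrays of slide 3 (female UV-Titan 21, male UV-Titan 3 and male control 43) had the highest liver channel values of all, 14.46 to 14.93, with a slide mean of 14.72. The slide means on slides 1, 2, 4 and 5 were 12.96, 13.47, 13.81 and 12.71. The slide effect passed the test in red (limma F test, adjusted p = 0.0159), where 34% of all genes did, and by ratio (adjusted p = 0.00543), where 3.74% did. With slide as a block, the female difference by ratio was 0.29 (limma adjusted p = 0.451). The 3 genes whose red pattern was most like that of Hamp, among 19334 compared over 16 arrays, were the unnamed transcript AK051199 (r = 0.96), Fahd2a (0.95) and clusterin, Clu (0.93).

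Hamp2, whose peptide is not known to act on iron, was close to background. It was well above background in red on 15 arrays but in green on only 4, so its ratio has a weakly measured denominator. Red spanned 6.50 to 7.20, highest in male UV-Titan 3 (7.20) and male control 33 (7.04). The group means were 6.74 ± 0.06 in exposed females (SD, n = 5), 6.68 ± 0.13 in control females (n = 3), 6.81 ± 0.29 in exposed males and 6.77 ± 0.22 in control males (n = 4 each). The red difference was 0.05 ± 0.13 in females and 0.04 ± 0.13 in males. Over all 16 arrays red spanned 1.63-fold.

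Bmp6, the ligand, was dim but measurable by 1 of its probes, with red well above background on all 16 arrays; its second probe was above background on none. Red read 7.07, 7.78, 7.92, 7.37 and 7.27 on female UV-Titan arrays 2, 8, 21, 10 and 16, against 7.25, 7.47 and 7.18 on female control arrays 35, 40 and 25. In males it read 7.10, 7.74, 7.55 and 7.07 on UV-Titan arrays 4, 5, 3 and 17, against 7.26, 8.02, 7.38 and 7.73 on control arrays 41, 31, 43 and 33. The groups overlapped, and the differences were 0.18 ± 0.21 in females and -0.23 ± 0.20 in males (limma adjusted p = 1.00 and 0.999).

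The split in Bmp6 ran by slide. The slide means in red were 7.17, 7.84, 7.62, 7.52 and 7.17 on slides 1 to 5, and the 7 arrays of slides 1 and 5 lay at or below 7.27. The slide effect passed in red (limma F test, adjusted p = 0.00801), where 34% of all genes did. It also passed by ratio (limma F test, adjusted p = 0.00856), where 3.74% did. The female difference in red was 0.00 with slide as a block. Within slides 1, 4 and 5 the exposed females differed by -0.18, -0.10 and 0.09 in red. Red and green of the Bmp6 probe had r = -0.20 (permutation p = 0.463; Spearman rho = -0.14, p = 0.601). The mean of 9 sinusoidal endothelial markers ran from 11.07 to 11.46 in red. Its r with Bmp6 was 0.49 (permutation p = 0.0586, adjusted 0.137 over 7 relations), and 0.04 once slide means were removed. Spearman's rho was 0.53 (permutation adjusted p = 0.0873). By ratio r was 0.80 (permutation adjusted p = 0.00028) and rho 0.77 (adjusted p = 0.0011). With slide means removed, r by ratio was 0.35 (permutation adjusted p = 0.182).

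Because Bmp6 acts on Hamp through SMAD proteins, Hamp was compared with the other 9 members and with the SMAD targets Id1 and Smad7, the hepcidin inhibitor gene Tmprss6 and the STAT3 target Socs3, in red with group means removed, 13 relations in all. After adjustment 4 passed by Pearson's r (permutation): Hamp2 (r = 0.67, adjusted p = 0.0346), Tmprss6 (r = 0.66, 0.0346), Tfr2 (r = 0.61, 0.0475) and Id1 (r = 0.60, 0.0475). None passed by Spearman's rho, for which the smallest adjusted p was 0.079. Without the 2 farthest arrays r fell to 0.35 for Hamp2, 0.43 for Tmprss6, 0.40 for Tfr2 and 0.41 for Id1. Bmp6 itself had r = 0.47 (adjusted p = 0.146) and Smad7 r = -0.07. By ratio, where both genes of a relation share the reference channel of the same arrays, 4 relations passed, of which Tfr2 and Tmprss6 had also passed by red: Bmp6 (r = 0.80, permutation adjusted p = 0.00016; rho = 0.84, adjusted p = 0.00058), Tfr2 (r = 0.93, rho = 0.85), Trf (r = 0.92, rho = 0.79) and Tmprss6 (r = 0.85, rho = 0.84), each by rank too. Id1 (r = 0.28) and Hamp2 (r = 0.26) did not pass by ratio. The ratios of Hamp, Bmp6, Tfr2 and Trf differed between slides (limma F test, adjusted p = 0.00543, 0.00856, 0.00305 and 0.032). The Hamp relations by ratio were not computed with slide means removed. In red the r of Bmp6 with Hamp was 0.17 with slide means removed.

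Male UV-Titan 17, the array with the lowest Hamp, weighed on these relations. Without it the r of Id1 in red was 0.85 (permutation adjusted p = 0.00117) with rho = 0.78 (adjusted p = 0.0105), whereas Hamp2, Tmprss6 and Tfr2 no longer passed. Without that array Socs3 passed by rank alone (rho = -0.69, permutation adjusted p = 0.0373; r = -0.52, adjusted p = 0.139). The array left out is the lowest in Hamp, which is 1 side of every relation. The permutations do not allow for a choice made on that value, so no conclusion is drawn from the p-values without that array. Id1 read 12.45 on female UV-Titan 21, 11.88 on male UV-Titan 3 and 12.29 on male control 43, the slide 3 arrays on which Hamp was highest. It read 12.09 on female UV-Titan 16 of slide 5, where Hamp was 13.63, and 11.50 on male UV-Titan 17. Over all 16 arrays, male UV-Titan 17 included, slide means were removed in addition to group means. There r was 0.50 for Id1 (permutation adjusted p = 0.289) and none of the 13 relations passed.

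**Figure D3:**
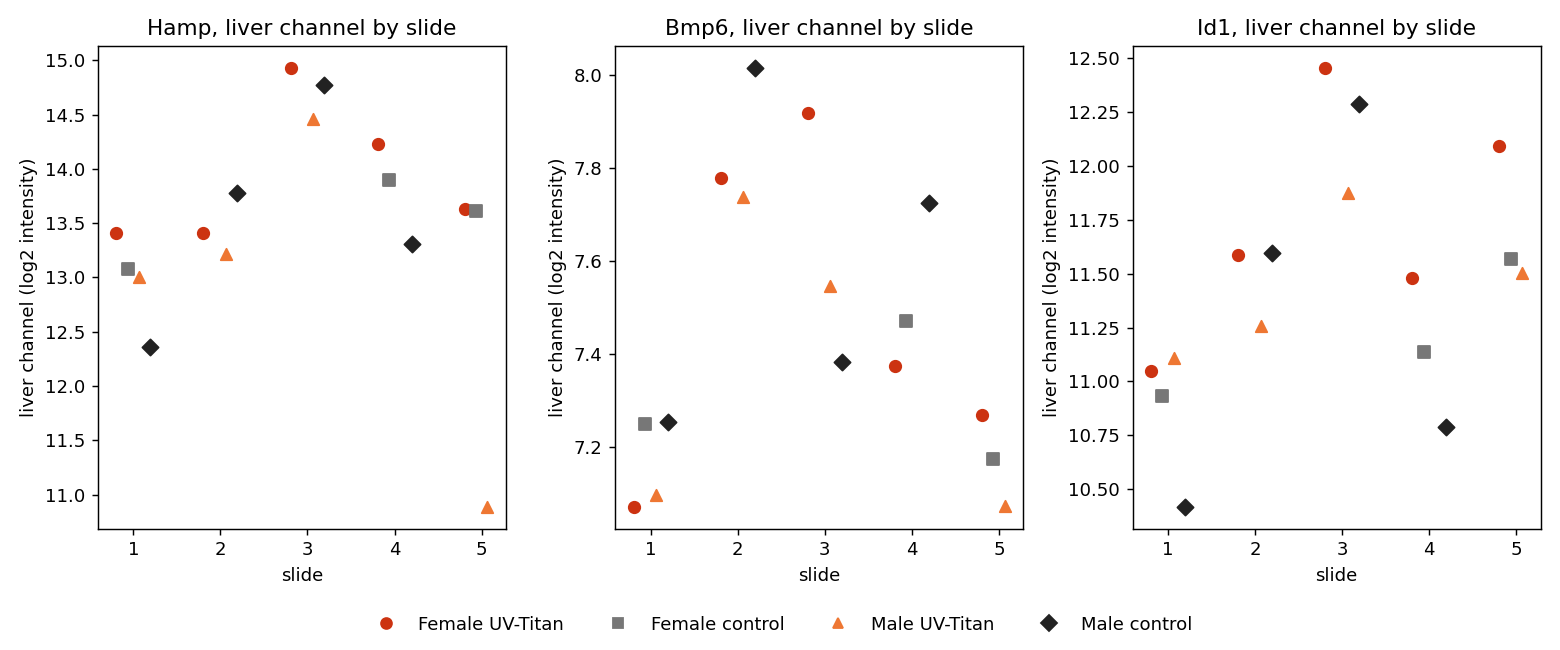
Liver channel (log2 intensity) of Hamp, its inducer Bmp6 and the BMP target Id1 on the 5 slides, with a symbol for each group. Hamp was highest on the 3 arrays of slide 3, where Id1 read 11.88 to 12.45, Id1 also read 12.09 on female UV-Titan 16 of slide 5, Bmp6 was at most 7.27 on slides 1 and 5, and Hamp on male UV-Titan 17 of slide 5 (10.89) stands far below the rest.

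In red the coreceptor and the sensors (Hfe2, Hfe and Tfr2) were steadier than Hamp and Bmp6. By ratio Tfr2 was not, with a 2.23-fold range over the arrays, against 2.48-fold for Hamp and 2.09-fold for Bmp6. Hfe2, the hemojuvelin gene, averaged 10.33 ± 0.06 in red in exposed females (SD, n = 5) against 10.23 ± 0.13 in control females (n = 3), and 10.14 ± 0.23 in exposed males against 10.21 ± 0.29 in control males (n = 4 each). By ratio the female difference was 0.26 ± 0.13 (limma adjusted p = 0.755) and the male one -0.01 ± 0.12. Male UV-Titan 17 read 9.81 and male control 31 read 9.82 in red, below all other arrays, which began at 10.08.

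Hfe varied least in red of the 10 genes, 1.26-fold over the 16 arrays, with an SD exceeded by most genes (13.8% of genes had a lower one). Its group means were 10.78 ± 0.13 in exposed females and 10.86 ± 0.02 in control females, and 10.76 ± 0.13 in exposed males and 10.77 ± 0.08 in control males. The ratio difference was 0.07 ± 0.08 in females and 0.03 ± 0.08 in males. Its second probe gave 8.10 ± 0.08 in exposed and 8.15 ± 0.21 in control females, and 8.05 ± 0.06 in exposed and 8.13 ± 0.09 in control males.

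Tfr2, the sensor partner of Hfe, had the smallest p of any member, and only by ratio. The ratio was 5.25, 5.61, 5.13, 5.10 and 4.72 on female UV-Titan arrays 2, 8, 21, 10 and 16, against 4.85, 4.49 and 4.47 on female control arrays 35, 40 and 25. The groups overlapped at exposed array 16 and control array 35, and the other exposed females lay above all controls. The difference was 0.56 ± 0.20 (1.47-fold; unadjusted p = 0.0119, limma adjusted p = 0.673), and 0.40, 0.60 and 0.25 within slides 1, 4 and 5. The ratio of Tfr2 differed between slides (limma F test, adjusted p = 0.00305), as did that of 3.74% of all genes, and the female difference was 0.39 with slide as a block (adjusted p = 0.245).

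In the liver channel Tfr2 averaged 15.49 ± 0.06 in exposed females against 15.44 ± 0.10 in control females, a difference of 0.05 ± 0.09. In the reference channel it averaged 9.80 ± 0.29 beside exposed females against 10.25 ± 0.08 beside control females, a difference of -0.45 ± 0.17 (unadjusted p = 0.0175, limma adjusted p = 1.00). The RNA in the reference channel was the same on every array. In males the ratio difference was -0.18 ± 0.19 and the red difference -0.02 ± 0.09.

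Trf, the carrier, showed the same pattern on a larger scale. The ratio was 6.02, 6.18, 5.62, 5.58 and 4.73 on female UV-Titan arrays 2, 8, 21, 10 and 16, against 4.74, 4.75 and 4.80 on female control arrays 35, 40 and 25. Exposed array 16 lay just below the controls and the other 4 lay above all of them. The difference was 0.87 ± 0.35 (1.82-fold; unadjusted p = 0.0235, limma adjusted p = 0.699), and 1.29, 0.83 and -0.07 within slides 1, 4 and 5. The ratio of Trf also differed between slides (limma F test, adjusted p = 0.032), as did that of 3.74% of all genes. The female difference was 0.62 with slide as a block (limma adjusted p = 0.42). In males the ratio was 5.64, 6.25, 5.76 and 4.34 on UV-Titan arrays 4, 5, 3 and 17, against 5.82, 6.26, 5.56 and 5.58 on control arrays 41, 31, 43 and 33, a difference of -0.31 ± 0.34 that turned to 0.08 without male UV-Titan 17.

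The liver channel of Trf spanned 17.64 to 18.23 over the 16 arrays, 1.50-fold, while the reference channel spanned 10.99 to 13.22, 4.69-fold and rank 28 of 19363 genes by SD. Quantile normalisation gives probes of equal rank the same value, and red values of this bright probe repeated between arrays. Red was 18.16 on both male control 41 and male control 43. Before normalisation the mean red signal ran from 204023 on male control 31 to 320179 on female control 40. The part of the normalisation in the red range was not tested. Red averaged 18.07 ± 0.15 in exposed females against 17.93 ± 0.25 in control females. Green averaged 11.84 ± 0.54 beside exposed females against 12.52 ± 0.13 beside control females. The red difference in females was 0.14 ± 0.13, or 0.44 with median centring of each array in place of quantile normalisation. That centring moved the female red difference by a median of 0.18 over all genes and 0.28 over the 10 members, and the small negative differences of Tfrc (-0.05) and Hfe (-0.08) turned to 0.25 and 0.18.

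The ratios of Hamp, Tfr2 and Trf moved with the mean ratio of a list of hepatocyte markers. These members were picked for the comparison after seeing the data, and Hfe and Hfe2 were not compared with the list. The mean ratio of 9 measured hepatocyte markers of 10 listed (Serpina1a was missing) was 5.39 ± 0.29 in exposed females against 4.81 ± 0.11 in control females, and 5.28 ± 0.47 in exposed males against 5.47 ± 0.22 in control males. In red the same markers averaged 16.10 ± 0.13 in exposed and 16.01 ± 0.08 in control females, and 16.03 ± 0.06 in exposed and 16.06 ± 0.13 in control males. With group means removed, the marker ratio had r = 0.97 with Hamp, 0.97 with Tfr2 and 0.95 with Trf over 16 arrays (permutation p = 1e-05 each, the smallest these permutations can give, adjusted 1.75e-05 over 7 relations). Spearman's rho was 0.96, 0.92 and 0.84 (permutation adjusted p = 3.5e-05, 3.5e-05 and 0.000303), and without the 2 farthest arrays r was 0.94, 0.97 and 0.89. Both sides of these relations share the reference channel of the same arrays, which the permutations do not allow for. The share of all genes reaching such an r is not given here.

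With slide means removed as well, these relations were 0.95, 0.92 and 0.86. In the liver channel they were 0.24 for Hamp, 0.40 for Tfr2 and 0.30 for Trf (permutation adjusted p = 0.432, 0.213 and 0.358). With slide means removed in that channel, r was 0.69 for Tfr2 (permutation adjusted p = 0.00457). It was 0.20 for Hamp and -0.21 for Trf (permutation adjusted p = 0.645 for each). The part that the reference channel has in the female ratio differences was not tested.

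**Figure D4:**
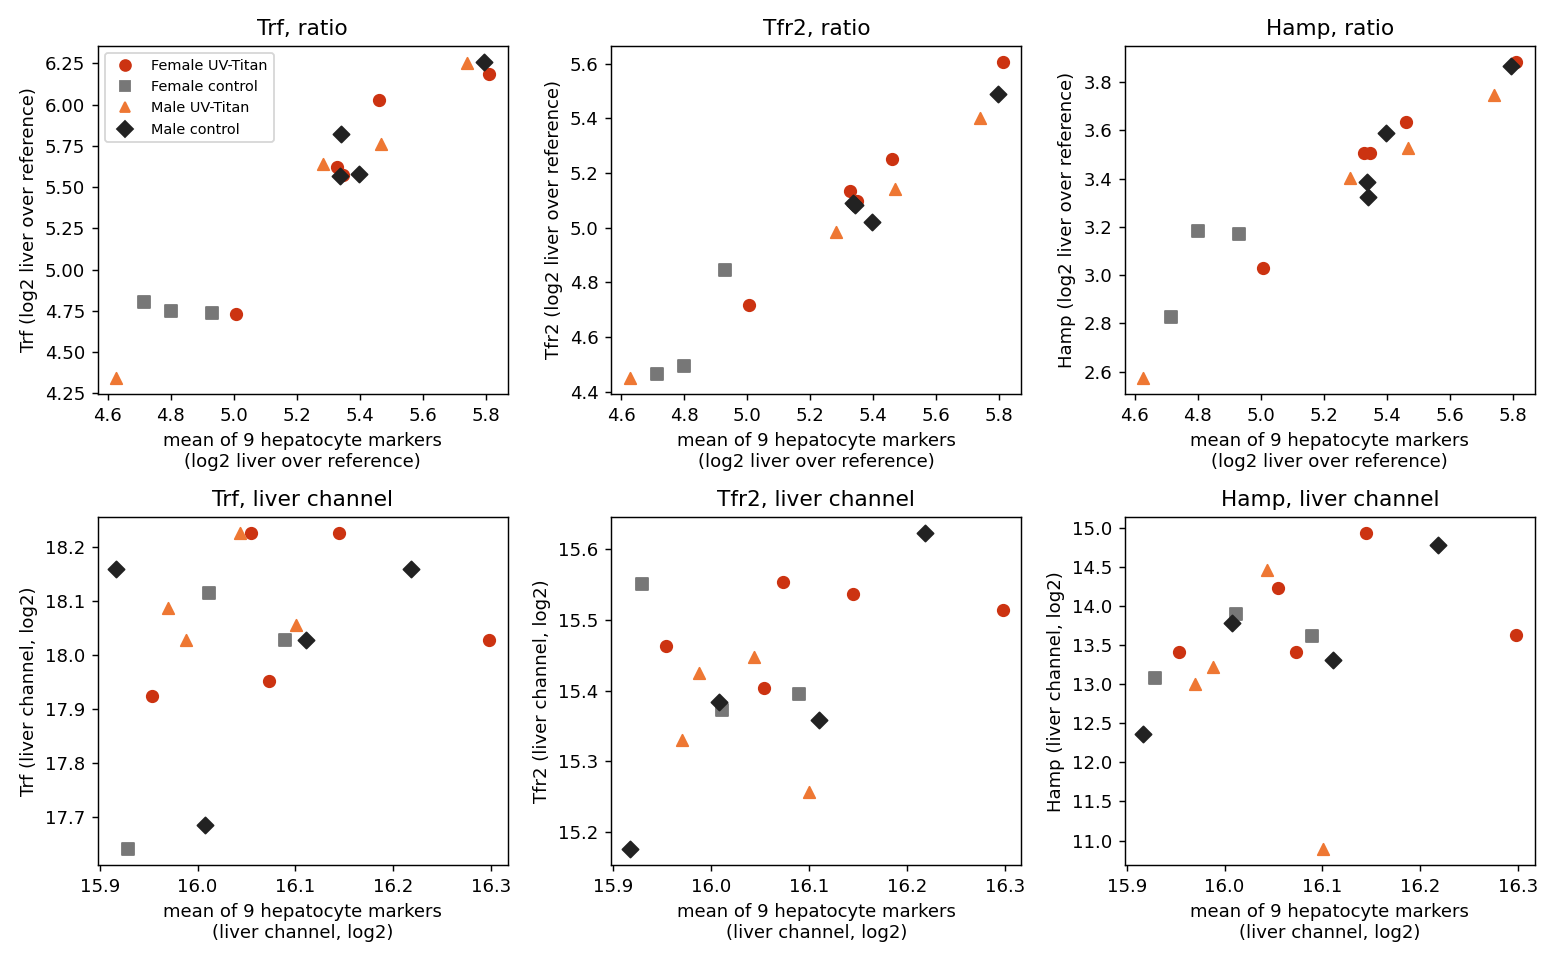
Trf, Tfr2 and Hamp on each array against the mean of 9 hepatocyte markers, as log2 ratio (upper row) and liver channel log2 intensity (lower row), with a symbol for each group. By ratio the 16 arrays lie along a line on which all 3 female controls, female UV-Titan 16 and male UV-Titan 17 are low. Of these, female control 25, female UV-Titan 16 and male UV-Titan 17 make up slide 5. In the liver channel the markers cover 15.92 to 16.30 only.

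Tfrc, the uptake receptor, was the member after Hamp that varied most in the liver, with a spread larger in the liver channel than in the reference channel (1.47-fold). Red read 11.56, 10.68, 11.79, 11.36 and 11.28 on female UV-Titan arrays 2, 8, 21, 10 and 16, against 10.74, 11.39 and 12.02 on female control arrays 35, 40 and 25. In males it read 11.83, 11.58, 11.50 and 12.43 on UV-Titan arrays 4, 5, 3 and 17, against 11.94, 10.99, 11.34 and 11.53 on control arrays 41, 31, 43 and 33. The range was 3.35-fold, with an SD of rank 322 of 19363 genes, and the groups overlapped in both sexes. The difference was -0.05 ± 0.29 in females and 0.39 ± 0.28 in males (limma adjusted p = 1.00 and 0.999). Without male UV-Titan 17 the male value was 0.19.

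Tfrc followed the red cell precursor and dividing cell genes of each liver closely. The mean of 9 erythroid markers in red (Hbb-b1 of the 10 listed was missing) ran from 11.98 on female UV-Titan 8, which had the lowest Tfrc, to 13.01 on male UV-Titan 17, which had the highest, and male control 41. Its r with Tfrc was 0.90 and rho 0.91 (permutation p = 1e-05 for both, the smallest these permutations can give, adjusted 3.5e-05 over 7 relations). The mean of 6 proliferation markers had r = 0.94 and rho = 0.90 (the same p and adjusted p). Without the 2 farthest arrays r was 0.90 for each list, and with slide means removed it was 0.95 and 0.93.

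By ratio the relation of Tfrc to proliferation markers was 0.89 (permutation adjusted p = 1.75e-05), while that to erythroid markers was 0.22 (adjusted p = 0.411) and 0.57 with slide means removed. Among the genes most like Tfrc in red were Trak2 (r = 0.96) and Bora (0.96). Erythroid markers averaged 12.37 ± 0.27 in exposed females against 12.37 ± 0.32 in control females, and 12.76 ± 0.28 in exposed males against 12.52 ± 0.39 in control males, and their part in the male Tfrc difference was not tested.

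**Figure D5:**
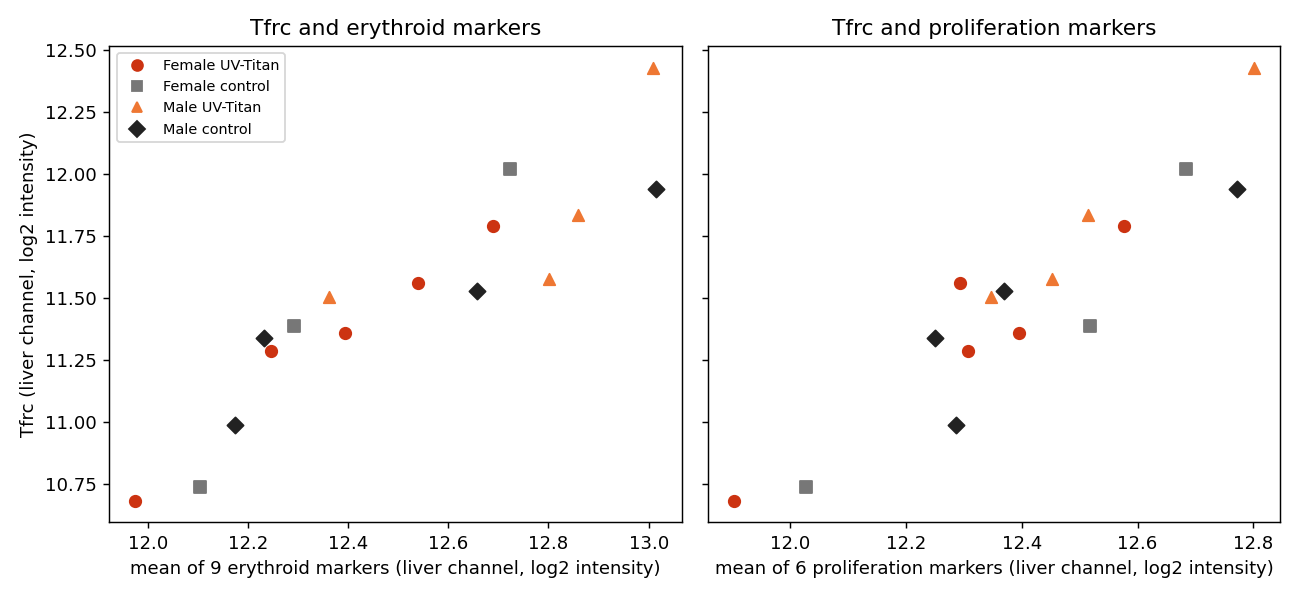
Tfrc in the liver channel (log2 intensity) on each array against the mean of 9 erythroid markers and of 6 proliferation markers in the same channel, with a symbol for each group. Tfrc is lowest on female UV-Titan 8 (10.68) and highest on male UV-Titan 17 (12.43), and follows both marker means, and exposed and control arrays are mixed along the way.

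Fth1, the ferritin heavy chain, spanned 1.40-fold in red over the 16 arrays. Like those of Trf, its normalised red values repeated between arrays, with 17.12 on both male UV-Titan 4 and male control 31. Its ratio was below 0 on all 16 arrays, from -0.70 to -0.15. Red averaged 17.05 ± 0.08 in exposed females against 17.16 ± 0.16 in control females, and 17.15 ± 0.17 in exposed males against 17.06 ± 0.14 in control males. The red difference was -0.10 ± 0.10 in females, which turned to 0.20 with median centring of each array, and 0.08 ± 0.10 in males, which turned to -0.04.

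Slc40a1, the ferroportin gene, read 14.01, 14.19, 14.18, 14.10 and 14.39 in red on female UV-Titan arrays 2, 8, 21, 10 and 16, against 14.34, 14.33 and 14.47 on female control arrays 35, 40 and 25. The exposed females were lower except array 16, which lay within the controls. In males it read 14.05, 13.97, 14.26 and 14.44 on UV-Titan arrays 4, 5, 3 and 17, against 13.89, 14.20, 14.12 and 13.91 on control arrays 41, 31, 43 and 33. The red difference was -0.21 ± 0.11 in females, which turned to 0.08 with median centring of each array, and 0.15 ± 0.11 in males, and the female minus male effect was -0.36 ± 0.16 (unadjusted p = 0.0381, limma adjusted p = 0.973), where 2.82% of all genes had an unadjusted p below 0.05.

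That opposition was not seen by ratio. There the differences were -0.04 ± 0.09 in both sexes, the reference channel moved by -0.13 ± 0.10 in females and 0.14 ± 0.09 in males, and median centring of the red channel turned the female value to 0.08. Red and green of Slc40a1 correlated at r = 0.80 (permutation p = 9e-05, adjusted 0.00045; Spearman rho = 0.77, adjusted p = 0.0036; r = 0.74 without the 2 farthest arrays). The mean of 10 Kupffer cell and macrophage markers, 11.85 to 12.48 in red, had r = -0.17 with Slc40a1 (permutation adjusted p = 0.555), but 0.62 by ratio (adjusted p = 0.0121).

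Between the sexes none of the 10 genes passed the test on either scale, where 0.0465% of all genes passed by ratio and 0.0362% by red. At an unadjusted p below 0.05 no member passed by ratio, against 4.31% of all genes, and Slc40a1 alone passed by red, against 2.2%. Males minus females, Slc40a1 differed by -0.17 ± 0.08 in red (unadjusted p = 0.0457, limma adjusted p = 1.00) and by -0.06 ± 0.07 by ratio. The corresponding differences were 0.30 ± 0.16 by ratio for Tfrc, 0.46 ± 0.24 for Trf and 0.20 ± 0.14 for Tfr2 (unadjusted p = 0.074, 0.0754 and 0.164, limma). For Hamp it was 0.14 ± 0.15 by ratio and -0.50 ± 0.43 in red.

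Around these genes, 75 of 77 listed genes of hepcidin signalling, iron storage and sensing, iron transport, haem recovery and haem or iron-sulfur synthesis were measured, and none passed in females or males by ratio or by red (limma). At an unadjusted p below 0.05 there were 10 in females and 4 in males by ratio, and 1 in each by red. Over all genes 6.69% in females and 4.94% in males passed that level by ratio, and 3.11% and 3.21% by red. By ratio 51 were higher and 24 lower in exposed females, with a median of 0.05, against 58.5% higher and a median of 0.02 over all genes. By red 35 were higher and 40 lower, with a median of -0.00.

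All 12 measured genes of haem recovery and breakdown were higher by ratio in exposed females, with a median of 0.10, where 58.5% of all genes were higher, while 8 were higher and 4 lower by red. In that list, hemopexin (Hpx) and haptoglobin (Hp), which bind free haem and haemoglobin in plasma, differed by 0.52 ± 0.17 and 0.65 ± 0.25 by ratio but by 0.06 ± 0.14 and 0.10 ± 0.09 in red. In the iron transport list, lipocalin 2 (Lcn2), which binds iron-carrying siderophores, differed by 0.43 ± 0.13 by ratio (unadjusted p = 0.00506, limma adjusted p = 0.638) and 0.28 ± 0.21 in red in females, and by 0.17 ± 0.13 and 0.31 ± 0.20 in males. In males the smallest p-values by ratio were those of the activin receptor Acvr2a (-0.18 ± 0.06), the interleukin 6 coreceptor Il6st (0.27 ± 0.11) and the ligand Bmp4 (0.23 ± 0.09), each with an adjusted p of 0.952 (limma), and their red values were -0.00, 0.21 and 0.15.

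In the hepcidin signalling list 15 of 25 genes were higher and 10 lower by ratio in exposed females, against 11 higher and 14 lower in exposed males. The BMP target Id1 differed by 0.54 ± 0.25 in females and -0.03 ± 0.24 in males by ratio, and by 0.52 ± 0.36 and 0.16 ± 0.35 in red. Tmprss6, the protease that cuts hemojuvelin, differed by 0.32 ± 0.13 by ratio in females but by -0.01 ± 0.11 in red. Stat3 differed by 0.28 ± 0.14 by ratio and 0.33 ± 0.16 in red in females, its target Socs3 by 0.13 ± 0.09 and 0.13 ± 0.12, and the inhibitory Smad7 by 0.05 ± 0.18 and -0.04 ± 0.33. In males Smad7 differed by -0.65 ± 0.32 in red (unadjusted p = 0.0585, limma adjusted p = 0.999).

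Of the 9 measured storage and sensing genes, 5 were higher by ratio in exposed females and 1 by red. Ferritin light chain (Ftl1) differed by -0.05 ± 0.08 by ratio and -0.18 ± 0.11 in red in females, and the iron regulatory protein genes Aco1 and Ireb2 by 0.03 ± 0.07 and -0.03 ± 0.08 by ratio. In the transport list of 16 genes, 11 were higher and 5 lower by ratio in exposed females. The ferroxidase ceruloplasmin (Cp) differed by 0.40 ± 0.19 by ratio and 0.28 ± 0.17 in red in females, and the importers Slc11a2 and Slc39a14 by -0.07 ± 0.12 and 0.10 ± 0.14 by ratio. Haem oxygenase 1 (Hmox1) differed by 0.12 ± 0.11 in females and -0.17 ± 0.10 in males by ratio.

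Across the series, 57.7% to 67.1% of spots were well above background in red and 62.7% to 69.8% in green, with no saturated spot. The Y-linked gene Ddx3y separated the sexes on every array, with ratios of 1.61 to 2.03 in males and -2.21 to -1.39 in females. Exocrine pancreas markers averaged 11.03 in red on male control 31 and 9.44 on male control 33, against 6.96 to 7.43 on the other arrays, and skeletal muscle markers 10.72 on male UV-Titan 5, against 7.46 to 8.31 elsewhere. Without these 3 arrays, none of the 10 genes passed either.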

How the data were processed

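Whole liver RNA of 16 offspring was measured on 2-colour Agilent mouse arrays of 45018 spots, with 200 ng of total RNA labelled per the labels' protocols. The deposited scanner files give red and green intensity per spot; per the file headers they were extracted with Agilent Feature Extraction 9.5.1.1, while the labels name 9.5.3.1. The authors' deposited table of log2 ratios served as an alternative only. Control spots and outlier spots (90 to 135 an array) were left out, background was corrected by normexp with an offset of 50, and ratios were loess-normalised within arrays. The red and green channels by themselves were quantile-normalised between arrays. Spots of a probe were averaged, and each gene entered by its brightest probe, provided that its red signal was well above background on 3 or more arrays. limma 3.58.1 in R 4.3.3 fitted 4 group means over all 16 arrays, with Benjamini-Hochberg adjustment over 19363 genes and a threshold of 0.05. Correlations used deviations from group means, except that red against green of a probe used the values themselves, with 100000 permutations, two-sided. In relations by ratio both sides share the reference channel of the same arrays, which the permutations do not allow for. The number of arrays limits the precision.

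The members and the gene lists were chosen with earlier results of these data known. The genes named are the members, the 3 listed genes with the smallest p by ratio in each sex, a panel of listed genes, and the 3 genes most like Hamp, Tfrc and Bmp6, of which some are not reported here. Relations of red to green and of members to marker lists were added after seeing the data. The fitting scripts were tested on simulated data. Alternatives covered background, normalisation, filters, slide and scan day, array weights and leaving out each array.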

Additional observations from a re-analysis of the deposited data

Results flagged for a closer look

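Of 60 groups of 4 or 5 arrays tested for a value far from the others, 2 had one, and chance gives about 1 in 20. The red value of Hfe2 on male UV-Titan 17 was 9.81, against 10.24 to 10.29 on the other male UV-Titan arrays. The ratio of Tfr2 on male control 31 was 5.49, against 5.02 to 5.09 on the other male controls; that array also had the highest pancreas marker mean, 11.03, whose part was not tested.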

How the results depend on the processing

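The 10 genes gave 2345 values under the alternatives (27 by ratio, 20 by red), of which 2138 kept their direction. None had an adjusted p below 0.05 (limma), and the smallest was 0.195, for Tfr2 by ratio in females with scan day as a block. The count of genes passing was 0 under every alternative. The number of Hamp relations that passed, 4, was 0 with slide means removed and 1 without male UV-Titan 17. That array had the lowest Hamp, and the p-values do not allow for leaving it out on that ground. The cause of these changes was not tested. By ratio the number that passed was 4 again, with Bmp6 and Trf in place of Hamp2 and Id1. Direction turned for 17 of 50 values with median centring of each array, 14 of 50 with red in place of the ratio, 10 of 50 with median centring in place of loess, 17 of 100 with slide as a block and 16 of 100 without male UV-Titan 17. Median centring in place of loess moved female ratio differences by a median of 0.26 over all genes and 0.36 over the members, so that Hamp was 0.83, Tfr2 0.93 and Trf 1.25, and values near 0 turned (Fth1 0.38, Slc40a1 0.33, Tfrc 0.32). Requiring probes above background on every array left no value for Hamp2. No paired analysis was possible because the groups share no replicate numbers, apart from the within-slide differences and the fit with slide as a block. Hamp2 and the second Bmp6 probe are limited by signal close to background.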
